A study of Mus musculus with 8 samples.

Results

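Secretory and vesicle traffic genes encode the coats, tethers, GTPases, fusion proteins and sorting complexes that move membrane and cargo between the endoplasmic reticulum (ER), the Golgi, endosomes and the cell surface. The group held 53 genes, given by name as a list of transport genes, of 21900 protein-coding genes in the gene table. A peak was given to a gene when its midpoint lay within the gene's span on mm10 and it lay on the strand that carried most of that gene's called peaks. All 53 genes were matched to a span and carried called peaks, and they fell into 11 roles. The list was not chosen by measured values.

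The series asked which RNAs are bound by Zmat3, a zinc finger RNA-binding protein encoded by a p53 target gene, with CLIP, in which RNA is crosslinked to protein by UV light and recovered with an antibody. The cells were mouse embryonic fibroblasts (MEFs). It holds 8 samples, 4 immunoprecipitates (IPs) and 4 inputs, and 7 peak lists were used. Controls 1 to 3 were Cas9+;E1A;HrasG12V cells with the guides sgNegative control EV, sgNegative control SPA and sgNegative control ACOCA, and the knockout was 1 Zmat3-/-;E1A;HrasG12V line without a guide. All 4 lines had received E1A and HrasG12V by retrovirus and hygromycin and blasticidin selection, so every group was transformed. The control lines alone also carried Cas9 and a lentiviral guide, and were held in puromycin for 3 days and then grown for 10 more days. UV-crosslinked lysates were treated with RNase and pulled down with a Proteintech anti-Zmat3 antibody, and RNA was recovered from complexes that ran between 35 and 110 kDa. The control lines are separate lines, and the knockout is 1 line and 1 library, so differences from it have no replicate on the knockout side. Cas9, the guide and puromycin differ between the groups together with Zmat3 and cannot be told apart from it.

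Cargo leaves the ER in vesicles coated with COPII and returns from the Golgi in vesicles coated with COPI. Arf and Rab GTPases recruit coats and tethers, golgins and the exocyst hold incoming vesicles at their target, and SNARE proteins drive fusion, after which NSF takes the SNARE complexes apart. Retromer, sorting nexins, AP-1 and AP-3 adaptors and dynamins sort and release carriers at endosomes, the trans-Golgi network and the plasma membrane.

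Each peak carries the log2 fold of the IP over a comparator and a −log10 p-value, both computed by the authors. A list compared either an IP with input or a control IP with the knockout IP. A peak was called when it stood in a list, whatever its fold, and enriched when its log2 fold was at least 3 and its −log10 p at least 3. The lists held 129323, 153768 and 122284 peaks for controls 1 to 3 and 167648 for the knockout over input, and read depth is unknown. Log2 folds took few distinct values, with the most frequent one in each list making up 11.8% to 22.4% of its peaks, so ties and repeated values are frequent below. The labelled cell type was only partly visible among called peaks. Fibroblast markers had peaks for 4, 5 and 4 of 8 genes in controls 1 to 3 and for 4 of 8 in the knockout, led by Fn1 with 70, 74, 59 and 79 peaks, while Col1a1, Col1a2 and Thy1 had none. Pdgfrb, another fibroblast marker, had 16, 12 and 10 control peaks but 2 in the knockout, and the neuronal marker Map2 had 9, 8 and 4 and 0. The part of this difference between the lines in the results on transport genes was not tested. Endothelial markers had none in any of the 4 IPs, and epithelial markers had peaks for 1, 2 and 2 of 4 genes in the controls and 3 of 4 in the knockout. The span of Zmat3 itself held 42, 48 and 39 called peaks in the controls and 38 in the knockout. Called peaks thus also arose in the IP from cells without Zmat3, and its values are given beside those of the controls.

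In brief, 52 of the 53 transport genes were called in all 4 IPs, but enriched peaks were few. Of the 11424 protein-coding genes with called peaks, 8233 were called in all 4 IPs. Of the 53 genes, 14 (26.4%) had at least 1 enriched peak in any list and 39 had none, where 17.8% of the 11424 protein-coding genes with called peaks had one. Most genes of the group were called in every IP, which the genes behind the second share need not be, so the shares are a description. Only Sec24b, a cargo-binding subunit of the COPII coat, and Golga2, a golgin of the cis-Golgi also known as GM130, had a site enriched over both input and the knockout IP in at least 2 of 3 controls. The 8 Rab GTPase genes of the group had no enriched peak in any list, though other Rab genes outside the group, Rab22a and Rab5c, had some.

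Transport genes held 1094, 1648 and 1006 called peaks in controls 1 to 3, which was 0.846%, 1.07% and 0.823% of each list. The knockout held 1699, or 1.01% of its list. All but 1 of the 53 genes were called in each of the 3 controls, where 8572 of 11424 protein-coding genes with called peaks were. Gene length was not matched. The 1 transport gene not called in each control was Sec23a, with 0, 3 and 4 control peaks and 2 knockout peaks. It encodes an inner-coat subunit of COPII that stimulates GTP hydrolysis by Sar1. The median peak lay at 53.0%, 52.7%, 52.5% and 48.6% of the way from the 5′ to the 3′ end of its gene in controls 1 to 3 and the knockout. The last 10% of the span held 14.4%, 13.5%, 16.3% and 14.2% of the peaks and the first 10% of the span held 10.8%, 9.34%, 12.1% and 10.5%, so in each IP the 3′ end held more. Median peak length was 53, 50, 47 and 43 nt. The strand rule left out 15 peaks on the other strand of Copa, Dnm2 and Sec24c, none of them enriched.

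High counts of called peaks fell in long genes, though not in all of them. Exoc4, an exocyst subunit whose span of 724.89 kb was the longest, alone held 18.7% of the transport genes' control peaks, with 183, 388 and 130 in the controls and 486 in the knockout. Vps13b, a lipid transfer protein with a span of 560.112 kb, held 55, 67 and 46 in the controls and 79 in the knockout. Sec24b reached 50, 75 and 69 peaks in the controls and 67 in the knockout within only 78.8 kb. At the other end, Vamp3, a SNARE of endosomal vesicles, had 1, 2 and 2 peaks in the controls and 7 in the knockout, and the exocyst subunit Exoc6 had 4, 2 and 2 against 3 over 147.29 kb. Vamp2, the SNARE best known from secretory vesicles, had the shortest span, 3.854 kb, and held 4, 9 and 6 control peaks beside 3 knockout peaks.

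**Figure D1:**
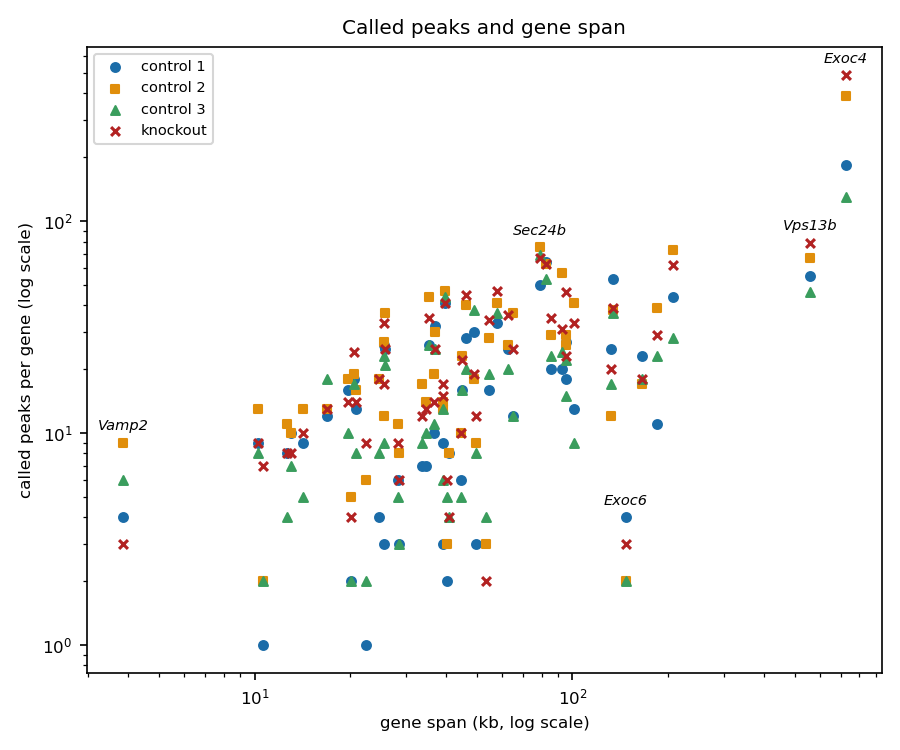
Called peaks per gene (vertical axis, log scale) against gene span in kb (horizontal axis, log scale) for the 53 transport genes, with 1 point for each IP and no point where a gene had 0 peaks. Exoc4 and Vps13b sit at the right with the longest spans, and Exoc6 lies far below other genes of like span.

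A gene's share of called peaks was compared between the knockout and the controls as peaks per 100000 called peaks of the same IP. Of the 52 transport genes called in all 4 IPs, 12 had a knockout share above all 3 controls, where 21.4% of 8233 protein-coding genes did, and 12 had a knockout share below all 3, where 35.3% of them did. The other 28 lay within the range of the controls. Exoc4 was among those above, at 141.51, 252.33 and 106.31 in the controls and 289.89 in the knockout. Stx6, a SNARE of the trans-Golgi network, was among those below, at 23.2, 11.71 and 31.08 in the controls and 11.33 in the knockout. Its knockout value lay just under that of control 2, so the separation was small beside the spread of the controls. This comparison was chosen after values were seen, and it carries no test.

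Enriched peaks over input numbered 4, 8 and 2 in controls 1 to 3 and 0 in the knockout. These were 0.366%, 0.485% and 0.199% of the transport genes' peaks in the controls, while 1.02%, 1.05% and 0.494% of all called peaks were enriched in the same lists. In the knockout, 0 of 1699 peaks were enriched, where 0.316% of all its called peaks were. Counting error alone would allow a share of up to 0.177% if peaks were independent. Many of them lie in the same genes and all come from 1 library, so this limit is no test against the share of all peaks. Counted by gene, the share of called transport genes with an enriched peak over input was 7.69%, 15.1% and 3.77% in the controls, beside 6.73%, 11.0% and 3.62% of all protein-coding genes with called peaks, and 0% in the knockout beside 2.50%. Over the knockout IP, enriched peaks numbered 4, 13 and 5, which was 0.366%, 0.789% and 0.497% of the transport genes' peaks, beside 0.621%, 1.09% and 0.648% of all peaks. These lay in 7.69%, 20.8% and 9.43% of called transport genes, beside 5.32%, 11.8% and 5.66% of protein-coding genes. The shares of transport genes with an enriched peak over input are near those of all genes and are no result about the group. Those over the knockout IP were higher in each control, but these 3 lists share 1 knockout library and gene length was not matched, so the share is a description.

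Requiring enrichment over both comparators at the same site in at least 2 controls left regions in 2 of 52 transport genes, or 3.85%, where 2.27% of 8572 protein-coding genes called in all controls had one. No transport gene had such a region in all 3 controls, where 0.887% of the 8572 did. A further 5 transport genes, or 9.62%, qualified in 1 control alone, where 7.42% of genes did, and in each of the 5 this was control 2, the library with the most enriched peaks among the controls. Across all genes, control 2 also gave 737 of the 806 regions found in 1 control alone.

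The Sec24b region was the strongest of the group over the knockout IP. It lay at chr3:130003082-130003195 on the minus strand, 114 nt long and 58.5 kb from the 5′ end of the gene. Its log2 fold over input was 3.02, 4.60 and 4.12 in controls 1 to 3 (mean 3.91 ± 0.81, SD, n = 3), with −log10 p of 2.95, 12.0 and 4.46. Against the knockout IP the log2 fold was 4.30, 5.88 and 5.11 (mean 5.10 ± 0.79, SD, n = 3), with −log10 p of 4.26, 15.3 and 7.97. Control 2 was highest on both scales, control 1 missed the p threshold over input by a small margin, and the knockout IP had no called peak there.

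The Golga2 region lay at chr2:32298450-32298574 on the plus strand, near the middle of the gene. Its log2 fold over input was 3.31, 3.89 and 3.30 in controls 1 to 3 (mean 3.50 ± 0.34, SD, n = 3), with −log10 p of 3.82, 9.97 and 2.24. The fold over the knockout IP was 3.01, 4.17 and 2.70 (mean 3.29 ± 0.78, SD, n = 3), with −log10 p of 3.80, 11.7 and 2.91. Controls 1 and 3 had almost the same fold over input, but control 3 lay below the p threshold on both comparisons, and no knockout peak was called. Without control 2 neither region qualified, without control 1 only that of Sec24b did, and without control 3 only that of Golga2 did.

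Across both comparisons, the enriched peaks merged into 20 sites in 14 genes, 41 to 192 nt long with a median of 105.5 nt. Of the 20, 7 were enriched over both comparators, 9 over the knockout IP alone and 4 over input alone. A peak was called at 10 of the sites in all 3 controls, at 9 in 2 controls and at 1 in a single control. The knockout IP had a called peak at 3 and none at 17. Among all called peaks of controls 1 to 3, only 30.5%, 28.2% and 30.1% overlapped a knockout peak. Most of the 20 sites were also picked by enrichment over the knockout IP, so this count is no result about the sites.

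**Figure D2:**
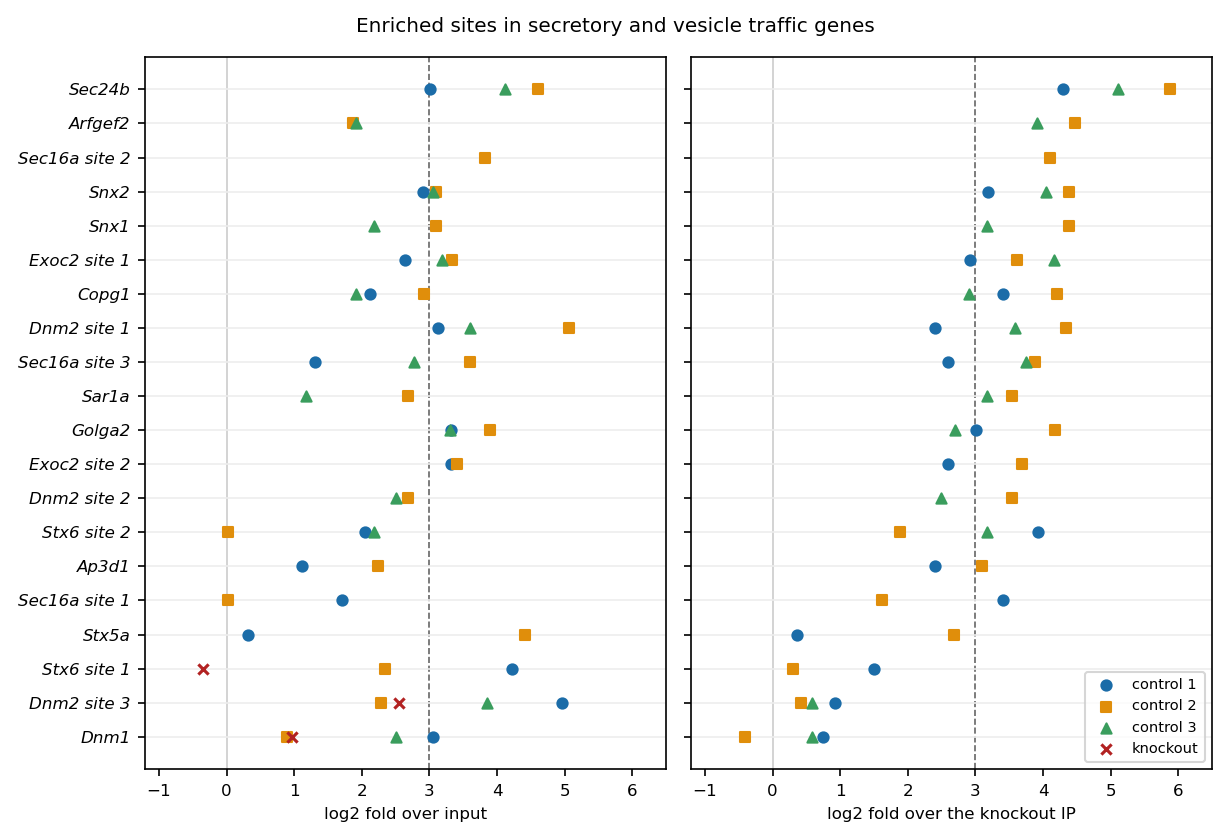
Log2 fold over input (left) and over the knockout IP (right) at the 20 enriched sites, with 1 point for each IP that had a called peak there and the dashed line at the log2 threshold of 3. Sites are ordered by their mean over the knockout IP, from Sec24b at 5.10 to Dnm1 at 0.31, and sites of 1 gene are numbered from its 5′ end. Knockout points appear at Stx6 site 1, Dnm2 site 3 and Dnm1.

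Among the other COPII genes, Sec16a, the scaffold of ER exit sites, had 3 sites on chromosome 2. The site at chr2:26425616-26425694 qualified in control 2, with 3.82 against input and 4.10 against the knockout IP, and was called in no other IP. A second site 1.863 kb away, at chr2:26423690-26423752, had 1.31, 2.77 and 3.60 over input in controls 1, 3 and 2. Against the knockout IP it had 2.60, 3.75 and 3.88 in the same order, and only control 2 was enriched. The third site, at chr2:26439855-26440000, was enriched over the knockout IP in control 1 at 3.41, with 1.62 in control 2 and no peak in control 3. Of the 3 sites, 2 were enriched in control 2 and 1 in control 1, and none was enriched in more than 1 control. Sar1a, one of the small GTPases that start COPII assembly, had a site at chr10:61684755-61684837 with 2.68 and 1.18 over input in controls 2 and 3 and 3.55 and 3.17 over the knockout IP. Only the control 2 peak passed the p threshold.

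In the COPI coat, 1 of 5 genes had an enriched site. Copg1, the gamma subunit of coatomer, had a peak at chr6:87902069-87902146 in all 3 controls and none in the knockout. Its log2 fold was 2.12, 2.92 and 1.92 over input and 3.41, 4.20 and 2.90 over the knockout IP, and it was enriched in control 2 only. Copa, the alpha subunit, was the most called COPI gene with 41, 47 and 44 control peaks and 41 in the knockout, and Copb2, with 4, 18 and 8 and 18, and Cope, with 9, 13 and 8 and 9, shared the lowest control total. None of these 3 had an enriched peak.

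Among the Arf genes, the only enriched site lay in Arfgef2, which encodes BIG2, an exchange factor that activates Arf proteins at the trans-Golgi network and endosomes. The site at chr2:166878378-166878490 had 1.86 and 1.92 over input in controls 2 and 3 and was not called in control 1. It had 4.47 and 3.90 over the knockout IP, and both passed the thresholds there. The mean was 1.89 ± 0.04 (SD, n = 2) against input and 4.19 ± 0.40 (SD, n = 2) against the knockout IP, a wider gap between comparators than at Sec24b or Golga2. Gbf1, an Arf exchange factor of the early Golgi, was the most called gene of this role with 53, 38 and 37 control peaks and 39 in the knockout, and Arf1 the least called with 12, 13 and 18 and 13.

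Among the golgins, Golgb1, which encodes giantin, was the most called, with 33, 41 and 37 control peaks and 47 in the knockout, and Golga3 the least, with 3, 9 and 8 and 12. Neither had an enriched peak, so Golga2 stood alone in this role.

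The 8 Rab genes held 82, 130 and 73 control peaks and 143 in the knockout without any enriched peak. Rab7, a regulator of late endosomes, was the most called with 28, 40 and 20 control peaks and 45 in the knockout. Rab8a, which acts in transport to the plasma membrane, was among the fewest with 2, 5 and 2 and 4. Rab11a, a marker of recycling endosomes, had the same control total as Rab8a with 1, 6 and 2 peaks and 9 in the knockout. Both VPS13 genes were likewise without enriched peaks. Vps13a held 23, 17 and 18 control peaks and 18 in the knockout.

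Among the SNAREs, Stx6 was the most called, with 30, 18 and 38 control peaks and 19 in the knockout. It had a site enriched over input and another enriched over the knockout IP, 12.997 kb apart. The first, at chr1:155159008-155159105, lay 0.43 kb from the annotated 5′ end and had 4.22 in control 1 and 2.34 in control 2 over input, no peak in control 3, and −0.35 in the knockout. The same controls had only 1.51 and 0.30 over the knockout IP, both below the threshold. Both control values over input lay above that of the knockout, but the direct comparison with the knockout IP was not enriched. The second, at chr1:155172103-155172180, had 2.05, 0.02 and 2.18 over input and 3.92, 1.88 and 3.17 over the knockout IP. It was enriched in control 1 alone. Stx5a, a SNARE of ER to Golgi transport, had a site at chr19:8749528-8749568 with 4.41 over input in control 2 and 0.31 in control 1, and 2.69 and 0.36 over the knockout IP. These controls differed by more than 4 log2 units over input at that site.

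In the exocyst, Exoc2, whose product is Sec5, had a pair of sites on chromosome 13 separated by 628 nt near the middle of its 184.581 kb span. At chr13:30876918-30877042, controls 1 and 2 had 3.31 and 3.41 over input and 2.60 and 3.69 over the knockout IP, with enrichment over both in control 2 and no peak in control 3. At chr13:30877671-30877830, the 3 controls had 2.64, 3.34 and 3.18 over input and 2.92, 3.62 and 4.17 over the knockout IP, with enrichment over the knockout IP in control 3. Neither had a knockout peak. Exoc4 had no enriched peak among its 701 control peaks, 388 of them in control 2.

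The sorting nexins Snx1 and Snx2, which bend endosomal membrane and act with retromer, each had 1 site that qualified in control 2. Snx1 held 10, 19 and 11 control peaks and 14 in the knockout, and Snx2 held 6, 10 and 5 and 10. The Snx1 site at chr9:66105689-66105771 had 3.10 and 2.18 over input in controls 2 and 3 and 4.38 and 3.17 over the knockout IP, with no peak in control 1. The Snx2 site at chr18:53199615-53199710 had 2.90, 3.10 and 3.06 over input (mean 3.02 ± 0.11, SD, n = 3) and 3.18, 4.38 and 4.04 over the knockout IP (mean 3.87 ± 0.62, SD, n = 3). The controls lay close together over input at Snx2, but control 1 had a −log10 p of only 1.30 and control 3 of 1.77. The control 2 values of the 2 genes were identical, with a −log10 p of 3.42 against input and 4.90 against the knockout IP, one of the ties in these lists. Vps35, the core retromer subunit, had 3, 14 and 6 control peaks and 15 in the knockout, none enriched.

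Dynamins pinch vesicles from membranes, and Dnm2, the ubiquitous member, carried 3 sites on the plus strand of chromosome 9. It held 64, 63 and 53 control peaks and 63 in the knockout. The first, at chr9:21465443-21465555, lay near the middle of the span and held the highest log2 fold over input of any transport gene peak. Its values were 3.12, 5.06 and 3.60 over input (mean 3.93 ± 1.01, SD, n = 3) and 2.41, 4.34 and 3.58 over the knockout IP (mean 3.44 ± 0.97, SD, n = 3). Control 2 passed both thresholds on both comparisons, control 3 passed them over the knockout IP and missed narrowly over input with a −log10 p of 2.95, and no knockout peak was called. The second, at chr9:21499146-21499261, had 2.68 and 2.50 over input in controls 2 and 3 and 3.55 and 2.49 over the knockout IP.

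The third Dnm2 site, only 601 nt further on at chr9:21499863-21500054, had the opposite pattern. Its log2 fold over input was 4.96, 2.28 and 3.84 in the controls (mean 3.69 ± 1.35, SD, n = 3) and 2.55 in the knockout. Over the knockout IP it was 0.92, 0.42 and 0.58 (mean 0.64 ± 0.25, SD, n = 3). The knockout value lay inside the range of the controls, above control 2. Dnm1, the neuronal dynamin, with 16, 23 and 16 control peaks and 22 in the knockout, had a like site at chr2:32331736-32331851 with 3.05, 0.89 and 2.50 over input in the controls beside a knockout value of 0.97. The controls had 0.75, −0.41 and 0.58 over the knockout IP. These sites, with the first site of Stx6 and that of Stx5a, were the 4 enriched over input alone.

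In the adaptor complexes, Ap3d1, the delta subunit of AP-3, had a site at chr10:80710545-80710612 enriched over the knockout IP in control 2. Its values were 1.12 and 2.24 over input and 2.41 and 3.10 over the knockout IP in controls 1 and 2, with no peak in control 3 or the knockout. Ap3b1 was the most called adaptor gene with 44, 73 and 28 control peaks and 62 in the knockout, and Ap1b1 the least called with 18, 26 and 15 and 23.

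The knockout IP had no enriched peak in a transport gene, and support for its highest values differed. The highest was a Sec24b peak at chr3:129993399-129993477 with a log2 fold of 2.89 and a −log10 p of 1.65, where no control had a peak. The second highest was a peak in Ap1g1, the gamma subunit of AP-1, at chr8:109839303-109839376, with a log2 fold of 2.72 and a −log10 p of 8.44. The controls had 0.81, 1.35 and 1.52 over input there and −1.90, −0.60 and −0.77 over the knockout IP, so all 3 lay below the knockout. This peak lies over the snoRNA gene Snord71, which sits inside Ap1g1 on the annotated map, and the transcripts cannot be told apart by position.

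Small non-coding genes inside transport genes otherwise contributed few peaks. Of 12 such genes of at most 500 nt, an unnamed snoRNA in Sec24a had 11 peaks over the 4 input lists with a highest log2 fold of 0.54. Snord71 had 4, and a snoRNA in Vps13b and the microRNA gene Mir199a-1 in Dnm2 had 1 each. Leaving out peaks over such genes changed neither region. Mir199a-1 is transcribed on the strand opposite to Dnm2, and no peak lay on the microRNA's own strand. The Dnm2-strand peak was seen in control 1 alone, at chr9:21496488-21496541, with 2.90 over input and a −log10 p of 1.30, and 2.18 over the knockout IP, so it was not enriched. The Dnm2 strand across this hairpin, chr9:21496495-21496564, is printed 5′ to 3′ as RNA, reverse-complemented from the RefSeq hairpin on GRCm38.p6, with the 47 bases inside the peak in capitals.
Dnm2 strand across Mir199a-1: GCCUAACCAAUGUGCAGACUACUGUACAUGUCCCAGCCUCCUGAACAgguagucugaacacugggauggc

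Called peaks also reached the first bases of some transcripts. RefSeq start windows were available for 46 of the 53 genes, as 56 windows, and the first 50 nt held a control peak in 17 genes and a knockout peak in 14, with neither in 27. Peaks of all 3 controls lay there in 4 genes, Stx6, Cope, Dnm2 and Arf3. None of these was enriched, and the median log2 fold over input in these windows was 0.31, −0.04 and −0.36 in the controls beside −0.69 in the knockout. The first 30 bases are shown 5′ to 3′ (RefSeq, GRCm38.p6) for the 4 windows with the most bases covered among those called in at least 2 controls, since these are the peaks whose sequence can be read directly, with bases inside a control peak in capitals.
Arf3, chr15:98763089-98763118, minus strand: GAGCCGGGGAGCGGGCCAGCGGACCATCTT
Gbf1, chr19:46152558-46152587, plus strand: gCTGACAGGGAAGGTAGCCGGCACCACCGA
Exoc4, chr6:33249128-33249157, plus strand: accTGGCTCTCGCTCCCGTACCAAGATGGC
Sec31a, chr5:100416205-100416234, minus strand: ggggctgcgGCTGCCACGTTGGAGCGGAGC

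At the Gbf1 start, controls 2 and 3 had 2.34 and 1.60 over input and 0.62 and 0.58 over the knockout IP, with no peak in control 1 or the knockout. At the start of Arf3, which encodes a Golgi Arf GTPase, the controls had 0.65, −0.61 and −0.32 over input and the knockout −1.25. Set against the knockout IP they had 0.66, −0.33 and 0.67, so control 2 lay below 0 on both scales. At the Exoc4 start, controls 1 and 2 had −0.95 and −0.87 over input and the knockout −0.91, between them. At the start of Sec31a, an outer-coat subunit of COPII, controls 2 and 3 had 0.19 and −1.40 and the knockout −1.87.

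The folds of all called peaks of a gene, not only the enriched ones, were summarised by their median. Over input, the median log2 fold over all transport gene peaks was 0.73, 0.60 and 0.33 in controls 1 to 3 and 0.23 in the knockout, beside 0.90, 0.60, 0.60 and 0.23 for all called peaks of those lists. Over the knockout IP it was 0.95, 0.88 and 0.90, beside 1.18, 0.88 and 1.00. Transport gene peaks therefore lay at or below the middle of each list. Among roles, median folds over input ranged in control 1 from 0.31 for the COPI coat to 1.31 for SNAREs and NSF, and in control 2 from 0.02 to 1.13 for the same 2 roles. In control 3 the highest was 1.18 for retromer and sorting nexins.

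**Figure D3:**
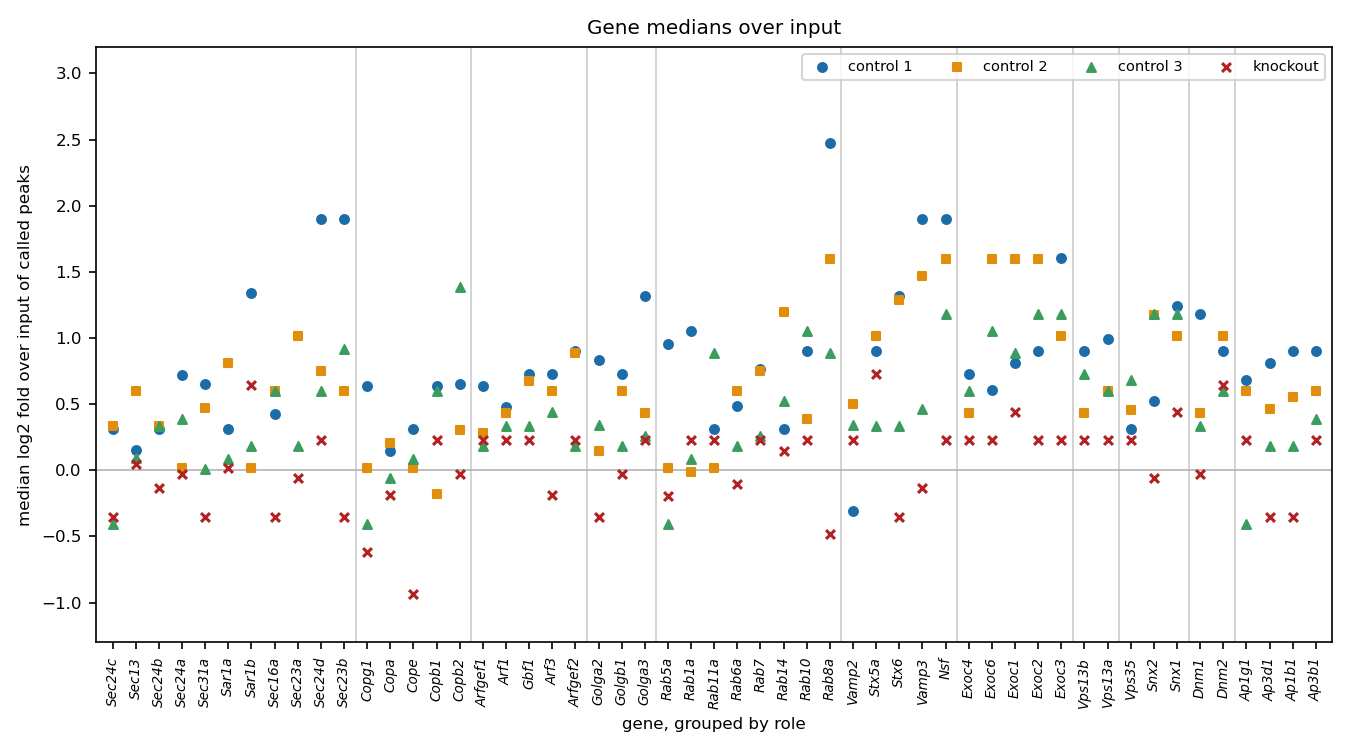
Median log2 fold over input of the called peaks of each transport gene (vertical axis) in the 3 control IPs and the knockout IP, with genes grouped by role on the horizontal axis and grey lines between roles. All 53 genes are shown, Sec23a without a point for control 1, and many knockout points sit on the repeated value 0.23.

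Controls and knockout were compared by gene with limma on these medians, over 4738 genes with at least 5 called peaks in each of the 4 IPs, among them 39 transport genes. The controls were higher for 3 transport genes and lower for 0 at an adjusted p under 0.05 (limma, Benjamini-Hochberg), while 11.5% of all genes tested were called higher and 0.106% lower. At an unadjusted p under 0.05, 10 transport genes (25.6%) were higher, where 33.2% of all genes tested were. The median difference, controls minus knockout, was 0.52 over the transport genes and 0.66 over all genes tested, so the whole scale was shifted between the lists. After each list was centred on its own median, limma called 0 transport genes and 0 of 4738 genes, with 2 transport genes and 449 genes in all at an unadjusted p under 0.05. The spread was also estimated differently there. The centred fit used an SE for each gene with 3.93 degrees of freedom, in place of a shared SE of 0.42 with 9476. How much of the loss of calls came with the shift was not tested. In bulk lysates, fewer cells of a type and less RNA per cell cannot be told apart, and here the lone knockout library was assumed to vary like the controls.

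The 3 called genes were Sec23b, Stx6 and Nsf. Sec23b, a paralog of Sec23a in the inner COPII coat, had gene medians of 1.90, 0.60 and 0.92 in controls 1 to 3 and −0.35 in the knockout. The controls lay above the knockout without overlap, with control 1 highest, and the difference was 1.49 (SE 0.42, limma adjusted p = 0.0186). Stx6 had 1.31, 1.29 and 0.33 in the controls and −0.35 in the knockout, again without overlap and with control 3 closest, and its difference was 1.33 (SE 0.42, limma adjusted p = 0.0257). Nsf, the ATPase that recycles SNAREs, had 1.90, 1.60 and 1.18 in the controls and 0.23 in the knockout, also without overlap, and its difference was 1.33 (SE 0.42, limma adjusted p = 0.0257). Such lack of overlap does not mark these 3 genes, since in most transport genes all 3 controls lay above the knockout. The difference was above 0 in 38 of the 39 transport genes and in 95.7% of all genes tested. The SE of 0.42 was the same for all 39 transport genes, whatever the spread of their own controls. On the centred scale the differences were 1.03, 0.86 and 0.86, with limma adjusted p-values of 0.516, 0.570 and 0.489. The SEs there differed by gene, at 0.46, 0.44 and 0.27. Without control 1 limma called none of the transport genes and none of all genes, with 6 and 1022 at an unadjusted p under 0.05, and without control 2 it called 1 transport gene.

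**Figure D4:**
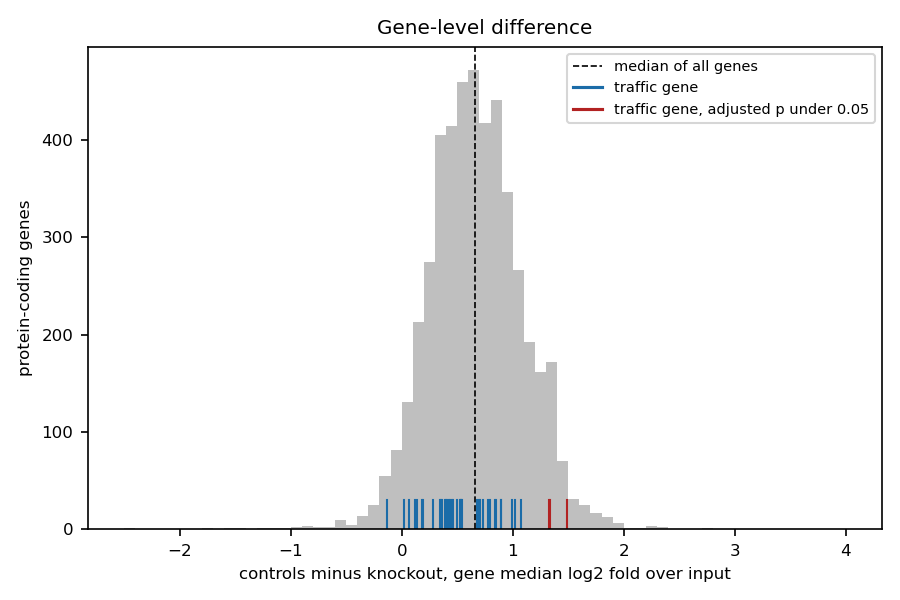
Distribution over 4738 protein-coding genes (grey bars, genes per bin) of the controls-minus-knockout difference in gene median log2 fold over input (horizontal axis), with the 39 transport genes as ticks and the dashed line at the median of all genes, 0.66. The 3 called genes, in red, lie at 1.33 to 1.49, where Stx6 and Nsf overlap, and the other ticks run from −0.13 to 1.08.

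Next in size were Cope, the epsilon subunit of coatomer, at 1.08 (limma adjusted p = 0.0699) and Snx2 at 1.02 (limma adjusted p = 0.0821). Cope had 0.31, 0.02 and 0.08 in the controls and −0.94 in the knockout, so its difference came with controls near 0. Snx2 had 0.52, 1.18 and 1.18 and −0.06. The smallest differences were −0.13 for Sar1b, 0.02 for Stx5a, 0.06 for Ap1g1, 0.12 for Copb1 and 0.13 for Arfgef1, an Arf exchange factor that encodes BIG1. Sar1b, the second Sar1 GTPase, had 1.34, 0.02 and 0.18 in the controls and 0.65 in the knockout, so 2 of 3 controls lay below the knockout. Sec24b, whose single site was the strongest over the knockout IP, had gene medians of 0.31, 0.34 and 0.33 in the controls and −0.13 in the knockout. Its difference of 0.46 lay under the median of all genes tested and did not pass (limma adjusted p = 0.398). Golga2 had 0.84, 0.15 and 0.34 and −0.35, a difference of 0.79 (limma adjusted p = 0.163).

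Against the knockout IP directly, the median over 39 transport genes of the gene's mean was 0.93, with 1.01, 0.88 and 0.95 in controls 1 to 3, beside 1.02, 1.13, 0.88 and 1.07 for 4982 protein-coding genes. Rab8a, with 9 control peaks in all, had the highest mean of the 53 genes, 1.84 ± 0.07 (SD, n = 3), and Vamp3, with 5, the lowest, at −0.40, −0.45 and 0.84 in controls 1 to 3. Exoc4, with the most peaks, had 0.47 ± 0.29, Dnm2 had 1.12 ± 0.12 and Sec24b 0.93 ± 0.06 (SD, n = 3).

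Site by site, limma was run on 16093 sites with a called peak in all 4 IPs, of which 148 lay in 37 transport genes. It called 0 transport gene sites in either direction at an adjusted p under 0.05, where 0.0249% of all sites, 4 in number, were higher in the controls and 0% lower. At an unadjusted p under 0.05, 22 transport gene sites (14.9%) differed, near the 13.7% of all sites. The largest difference was 2.72 at an Ap3d1 site, chr10:80708444-80708543, where the controls had 1.12, 0.17 and −0.18 over input and the knockout −2.35 (limma adjusted p = 0.278). It was followed by 2.59 at a Rab14 site and 2.50 at an Ap1b1 site. The knockout stood at −2.35, −2.16 and −1.77 at these 3 sites, below every control. The most negative was −1.84 at a Dnm2 site, chr9:21457485-21457572, where the controls had −0.27, −1.15 and 0.28 and the knockout 1.45 (limma adjusted p = 0.333). Such sites leave out the 17 enriched sites where the knockout had no peak, including those of Sec24b and Golga2.

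Beyond the 53 genes, 99 further genes of the same roles were listed, such as other Rab GTPases, SNAREs and coat subunits, and 94 of them carried called peaks. Their enriched peaks over input numbered 6, 11 and 0 of 949, 1246 and 879 in the controls and 0 of 1364 in the knockout. In controls 1 and 2 these were 0.632% and 0.883% of their peaks, beside 1.02% and 1.05% of all peaks. Peaks enriched over the knockout IP numbered 4, 17 and 6, or 0.422%, 1.37% and 0.683%, beside 0.621%, 1.09% and 0.648%. Of 83 genes called in all controls, 2 (2.41%) had a region enriched over both comparators in at least 2 controls, near the 2.27% of all genes, and none had one in all 3, where 0.887% of all genes did. Ykt6, a lipid-anchored SNARE, had its region at chr11:5957350-5957437 with 3.56, 3.34 and 1.60 over input and 3.26, 3.03 and 2.00 over the knockout IP. Rab22a, an endosomal GTPase, had its region at chr2:173661217-173661379 with 4.22, 3.23 and 3.68 over input and 3.51, 4.51 and 3.67 over the knockout IP. Neither had a knockout peak, and in both the region rested on controls 1 and 2. Gene medians were called higher in the controls for 5 of 50 of these genes and lower for 0 (limma, adjusted p under 0.05), again beside 11.5% of all genes tested.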

How the data were processed

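CLIP peak lists were available for 4 IPs, and inputs have no list of their own. Per the submitters' processing notes the build was mm10. Each list has 6 unnamed columns with position, strand, a −log10 p-value deposited by the authors and, per peak, the authors' log2 fold of IP against comparator, with units read from the values. The −log10 p deposited by the authors was capped at 400. Not given in the sources used here are the aligner, the peak caller and read depth. Gene spans and start sequences came from RefSeq tables (GRCm38.p6), which carry no exons, so exon, intron and UTR positions were not analysed here.

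The genes, lists, thresholds and tests were chosen with earlier results of these data known. Enriched meant log2 fold of at least 3 and −log10 p of at least 3. A control peak qualified when it passed against input and shared at least 1 nt and the strand with a peak that passed against the knockout IP in that control. Qualifying peaks of all controls were merged into regions, and where a site held several peaks the highest log2 fold stood for it. Gene medians and site values over input were fitted with limma 3.58.1 (lmFit, eBayes, R 4.3.3) over all genes or sites, with Benjamini-Hochberg adjustment, and the code was tested on simulated data. No count test was possible. With 3 controls and 1 knockout, SDs measure the spread between control lines, and limma p-values rest on that spread. On the deposited scale the gene-level fit pooled it over all genes into 1 shared SE of 0.42. Those p-values therefore do not follow the spread of a gene's own controls. Alternatives covered the thresholds, strand, overlap, centring, gene summary, peak minimum and each control left out. Named genes were those with qualifying peaks, the most and least called of each role, the 5 largest and 5 smallest gene-level differences, every gene past an adjusted p of 0.05, and further pathway genes with a region in at least 2 controls. Genes named beside these, such as those with other enriched sites, start-window peaks or the highest knockout peaks, were chosen after their values were seen.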

Additional observations from a re-analysis of the deposited data

Results flagged for a closer look

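At the first Stx6 site, chr1:155159008-155159105, the knockout value was −0.35 (log2, over input) while both controls with a peak lay above 0, at 4.22 and 2.34, and this difference at a single site was not tested. At the gene level, limma on the deposited scale put the controls above the knockout in 3 genes, by 1.49 for Sec23b, 1.33 for Stx6 and 1.33 for Nsf (adjusted p = 0.0186, 0.0257 and 0.0257). Each was higher in 3 of 3 controls, as were most transport genes. On the same scale 11.5% of all genes were called higher. None of the 4738 genes was called after each list was centred on its median, where the SE was also estimated gene by gene.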

How the results depend on the processing

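No paired analysis was possible because the groups compared share only replicate number 1, with 1 knockout library. With a log2 threshold of 4, enriched transport gene peaks over input averaged 2 per control in place of 4.67, over the knockout IP 4 in place of 7.33, and 1 region was left (Sec24b). With −log10 p of at least 5 these were 1.67, 2.67 and 0. With a log2 threshold of 2 the knockout had 1 enriched peak. Requiring all 3 controls left 0 regions, and the knockout IP alone as comparator gave 5 (Arfgef2, Dnm2, Golga2, Sec24b and Snx2). Leaving out each control gave means of 3 to 6 over input, 4.5 to 9 over the knockout IP, and 0 to 1 regions. Gene-level calls higher in the controls were 0 after centring and 14 with means in place of medians (1711 over all genes tested). With a minimum of 1 called peak they were 0. At an unadjusted p under 0.05 (limma) that minimum gave 7 transport genes (13.5%), beside 24.7% of all genes tested. With a control left out, calls in transport genes were 0 to 3. Calls over all 4738 genes were then 0, 105 and 837 without controls 1, 2 and 3. The median gene-level difference over input was 0.057 after centring and 0.70 with means, and the site-level one 0.18 after centring, against 0.65. The median over the knockout IP was −0.089 after centring, against 0.93 as deposited, and 1.00 with means. The causes were not tested, and fewer libraries lower the counts by construction. Over the results that summarise a comparison, 72 values stayed within their limits, 23 moved and 1 turned its sign. The 44 values of single sites stayed within 1 SD, but this was fixed in advance and is no sign of stability. Leaving 1 control out cannot move a mean of 2 or 3 controls by 1 SD of those same controls. The mean in place of the highest fold left these site values unchanged. Read depth is unknown, so what it limits could not be given.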
